A study of Neogale vison with 6 samples.

Results

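The genes described here encode the machinery that sorts cargo at endosomes. They are the sorting nexins (SNX), the charged multivesicular body proteins (CHMP) and the vacuolar protein sorting genes (VPS), except the HOPS and CORVET tether genes VPS11, VPS16, VPS18, VPS39 and VPS41, together with HGS, STAM, STAM2, TSG101, PDCD6IP, EEA1 and PIKFYVE. The members were taken by gene symbol from the count table, by a rule that uses no measured value but was written with earlier results of these data known. By this rule 64 of the 24526 genes of the table were members, and 60 of them had enough reads to be tested. TSG101 was not among the symbols matched and was not analysed here.

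Proteins that reach the endosome are either returned or destroyed. Retromer and the sorting nexins, which bind phosphoinositides on the endosomal membrane through their PX domain and in part curve it through a BAR domain, carry receptors back to the trans-Golgi network or the plasma membrane. The ESCRT complexes instead collect ubiquitinated receptors and bud them into the endosome as intralumenal vesicles, after which the AAA ATPase VPS4 takes the ESCRT-III filament apart. ESCRT-III also closes autophagosomes and repairs membranes.

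Mv1Lu is an established epithelial cell line from the lung of the mink. RNA-seq libraries were made from 3 samples of untreated cells (control) and 3 samples of cells subjected to cholesterol depletion (CD). CD consisted of 16 h with 50 μM lovastatin, a statin that inhibits HMG-CoA reductase, and 50 μM mevalonate, the product of that enzyme, in medium with 10% lipoprotein-deficient serum (LPDS), so the parts played by statin, mevalonate and serum cannot be told apart. No other allele or agent is named in the labels. The labels do not say whether the samples came from separate cultures, so the p-values measure the spread between these samples, which may be technical.

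The libraries held between 13473820 and 18633764 reads on genes, of which between 49109 and 68755 fell on the 64 members. Reads that could not be assigned to a gene made up 29.3% to 47.2% of the control and 31.1% to 41.4% of the CD libraries. The CD libraries differed more from each other than the control libraries did: over the members, the median SD of log2 CPM (counts scaled to a common library size by TMM) was 0.119 in control and 0.237 in CD, and over all tested genes it was 0.121 and 0.231. Of the epithelial markers, KRT19 averaged 936 ± 66.9 CPM in the control group and was lower, 458 ± 77.1 CPM, after CD (SD, n = 3 in each group, here and for the next genes), CLDN4 was higher, from 0.603 ± 0.231 to 7.03 ± 1.11 CPM, and OCLN was not called, at 6.73 ± 1.05 and 7.02 ± 1.40 CPM, whereas CDH1 and EPCAM stayed under 1 CPM in every library, and the alveolar type II markers SFTPB and SFTPC had no reads. Summed expression was higher in CD without overlap for 3 leukocyte markers (0.0723–0.220 CPM in control, 0.738–0.920 in CD) and for 4 endothelial markers (0.0723–0.220 and 1.17–1.96 CPM), with CD14 and VWF called higher (log2 fold changes 2.37 and 3.38, edgeR FDR 0.00141 and 8.82e-04), although the leukocyte marker PTPRC had no reads in 5 of the 6 libraries. The 5 fibroblast markers, mostly COL1A2, summed to 221–268 CPM in control and 156–198 CPM in CD. Of these, COL1A1 and COL1A2 were called lower (log2 fold changes -0.93 and -0.37, edgeR FDR 9.45e-04 and 0.0403), and PDGFRA was not called. DCN and LUM had higher means in CD but stayed under 1 CPM in every library and were not tested. The part of these markers in the results below was not tested.

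CD and control were compared with the quasi-likelihood test of edgeR over all 12148 genes with enough reads, and a gene was called at a Benjamini-Hochberg FDR under 0.05. The log2 fold change of CD over control is written log2FC, ± its standard error, and the 95% intervals are from the same fit. Calls were made for 25 of the 60 tested members: 22 rose and 3 fell under CD, while 35 were not called. Among all tested genes 24.8% were called higher and 22.9% lower, 47.7% in either direction, against 36.7%, 5% and 41.7% of the members. The share of members called was below that of all genes, and 22 of their 25 calls were on the higher side. The number of members called lower was 1 without control replicate 1 and 7 without CD replicate 1. Over all genes, 2784 were called lower with every library in, 2214 without control replicate 1 and 2883 without CD replicate 1. The median log2FC of the members was 0.24, against 0.06 over all tested genes. The groups did not overlap for 32 of the 60 members, while this was true of 58.0% of all tested genes. At least 2-fold, 8 members were higher and 1 was lower, with 10.6% and 9.64% of all genes as the background. In RNA from whole cultures, a change in the RNA of each cell cannot be told apart from a change in the share of cells that express the gene.

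**Figure D1:**
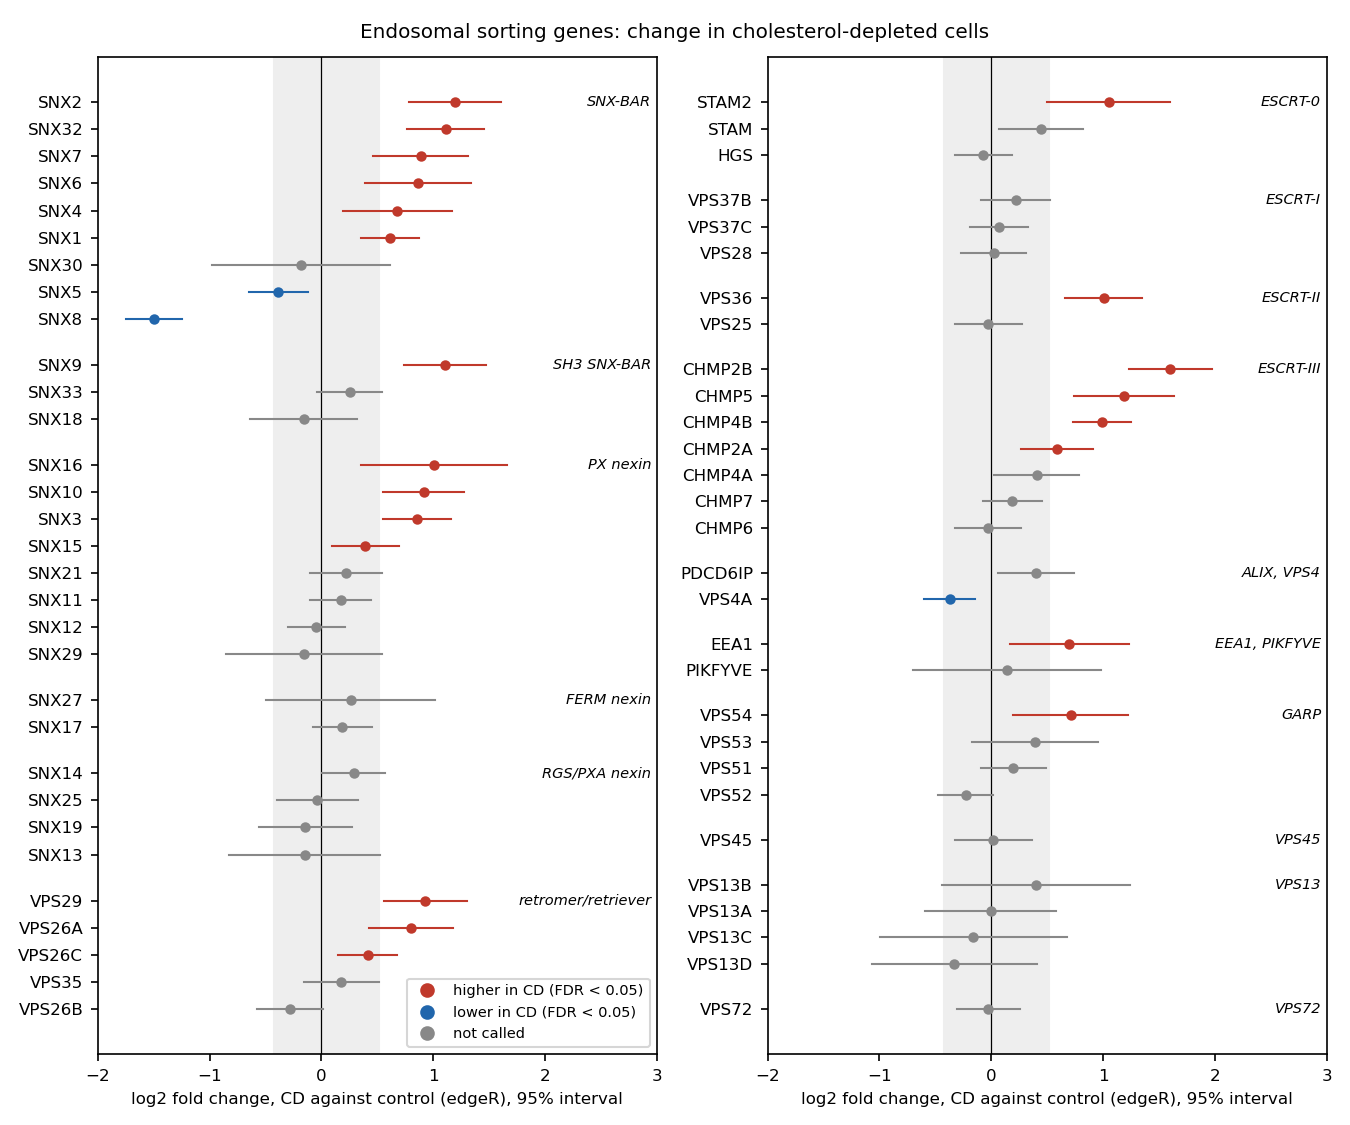
Log2 fold change in CD against control of the 60 tested members (points) with 95% intervals (lines), ordered by role. Red and blue mark calls at an FDR under 0.05, and the grey band spans the middle 50% of all tested genes, from -0.43 to 0.52. SNX8 alone lies below -1, and CHMP2B lies highest at 1.60.

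As a pool, the members took a larger share of the reads on genes in each CD library than in any control library, a difference given here without a test. They made up 0.354%, 0.365% and 0.350% of gene reads in the control libraries (replicates 1 to 3, in this order throughout), compared with 0.436%, 0.422% and 0.428% after CD. CHMP4B, the member with the most reads in CD, contributed 0.0244% to 0.0269% in control and 0.0482% to 0.0543% in CD, and without it the share was still 0.326% to 0.338% against 0.372% to 0.388%.

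The sorting nexins with a BAR domain were the group with the most calls. SNX1 and SNX2 form dimers with SNX5, SNX6 or SNX32 in the ESCPE-1 coat, which returns the cation-independent mannose 6-phosphate receptor, while SNX4 recycles cargo together with SNX7 or SNX30. Of these 9 genes, SNX8 included, 6 were higher and 2 lower, and all but SNX30 had groups that did not overlap (24.8%, 22.9% and 58.0% of all tested genes). SNX2 (ENSNVIG00000020842) was at 27.7, 33.5 and 22.1 CPM in the control libraries and at 64.8, 51.8 and 73.6 CPM in the CD libraries. This is a log2FC of 1.19 ± 0.18 (edgeR FDR 5.03e-04), or 2.29-fold, with every CD library above every control library. Its partner gene SNX1 rose less, from 49.7, 58.0 and 50.8 CPM to 80.4, 78.7 and 83.1 CPM (log2FC 0.61 ± 0.12, edgeR FDR 0.00169).

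The alternative partners of SNX1 and SNX2 moved in opposite directions. SNX6 was at 12.4, 17.2 and 11.2 CPM in control against 30.3, 20.2 and 23.6 CPM in CD, a log2FC of 0.86 ± 0.21 (edgeR FDR 0.00758). SNX32, a close relative of SNX6 and SNX5, rose from 8.31, 8.24 and 8.98 CPM to 18.1, 19.2 and 17.9 CPM, a log2FC of 1.11 ± 0.15 (edgeR FDR 2.53e-04). SNX5 was lower, at 79.5, 90.5 and 76.6 CPM in control against 62.8, 59.3 and 66.6 CPM in CD, a log2FC of -0.39 ± 0.12 (edgeR FDR 0.0215). The groups of all 3 genes did not overlap, but the call of SNX5 was lost without control replicate 1 or 2 or CD replicate 2 (edgeR FDR 0.0635, 0.0996 and 0.0726). It was also lost with the replicate number as a further term of the fit (edgeR FDR 0.0599).

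SNX8, an SNX-BAR protein of early endosomes, had the largest change of any member in the downward direction. It was at 121, 117 and 131 CPM in control against 44.6, 44.9 and 40.8 CPM in CD, 0.354 times the control level (log2FC -1.50 ± 0.11, edgeR FDR 5.31e-06). The CD libraries lay close together and far below the control libraries, and with any library left out the log2FC stayed between -1.55 and -1.46. SNX7 was higher, at 21.9, 30.5 and 23.8 CPM in control against 43.3, 38.7 and 59.0 CPM in CD (log2FC 0.89 ± 0.19, edgeR FDR 0.00362). SNX4 was at 11.3, 12.5 and 7.49 CPM in control against 19.4, 14.9 and 15.7 CPM in CD, without overlap. Its log2FC was 0.68 ± 0.22 (edgeR FDR 0.0264), a call that was lost on leaving out control replicate 1 or 3 or CD replicate 1 (edgeR FDR 0.0581, 0.109 and 0.0669). For SNX30, the other partner of SNX4, the fold change could not be fixed, with a 95% interval of -0.98 to 0.62 on the log2 scale.

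Of the 3 nexins that combine an SH3 domain with a BAR domain and act in endocytosis, SNX9 was higher. This activator of dynamin-dependent scission was at 30.7, 34.3 and 26.9 CPM in control against 77.1, 67.4 and 52.8 CPM in CD, a log2FC of 1.11 ± 0.16 (edgeR FDR 4.09e-04). SNX33 and SNX18, which act with or in place of SNX9, were not called, with log2FCs of 0.25 and -0.16 and 95% intervals of -0.04 to 0.54 and -0.64 to 0.32.

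Among the nexins built mainly of a PX domain, 4 of 8 tested were higher and none was lower, so that the share called, 50%, was near the 47.7% of all tested genes. SNX3, which recruits retromer for the recycling of the Wnt carrier Wntless, rose from 39.2, 48.7 and 42.8 CPM to 73.3, 73.9 and 89.3 CPM (log2FC 0.86 ± 0.14, edgeR FDR 6.06e-04). SNX10, known for its part in the acidification and trafficking of endosomes in osteoclasts, rose from 20.2, 25.5 and 23.0 CPM to 49.5, 35.3 and 44.8 CPM (log2FC 0.91 ± 0.16, edgeR FDR 0.00123). The late endosomal SNX16 had few reads, 22, 32 and 27 counts in control and 64, 40 and 61 in CD, with a log2FC of 1.01 ± 0.29 (edgeR FDR 0.0169). In each of these genes the groups did not overlap. The call of SNX16 was lost without control replicate 1 or 3 (edgeR FDR 0.0663 and 0.0831). SNX15 changed least of the called nexins of this type, from 28.4, 25.4 and 30.0 CPM to 33.3, 37.9 and 38.8 CPM. Its log2FC was 0.39 ± 0.13 (edgeR FDR 0.0361), a call that was lost on leaving out any control library or CD replicate 2 (edgeR FDR 0.109, 0.143, 0.0673 and 0.131), with DESeq2 (FDR 0.0577), with its size factors in edgeR (FDR 0.0508) and without a filter on low counts (edgeR FDR 0.0577). The call was also lost with the replicate number as a further term of the fit (edgeR FDR 0.0901). Of those not called, SNX12, the closest relative of SNX3, was nearest to 0, with a log2FC of -0.05 and a 95% interval of -0.30 to 0.21. SNX20 and SNX22 had no reads in any library, and SNX31, a FERM nexin, had 1 read in control replicate 2 and none elsewhere.

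The cargo adaptors with a FERM domain and the nexins with an RGS or PXA domain were not called. SNX17, which selects integrins and lipoprotein receptors for recycling by the retriever complex, was at 266, 248 and 274 CPM in control against 263, 314 and 321 CPM in CD (log2FC 0.19, 95% interval -0.07 to 0.45). SNX27, which links retromer to receptors with a PDZ-binding motif, was at 12.7, 10.8 and 11.6 CPM in control but at 19.4, 16.3 and 6.20 CPM in CD, so that the CD libraries lay on both sides of the control libraries. SNX14, which stands at contacts between the endoplasmic reticulum and lipid droplets, came nearest to a call among SNX13, SNX14, SNX19 and SNX25, with a log2FC of 0.29 (edgeR FDR 0.0858).

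**Figure D2:**
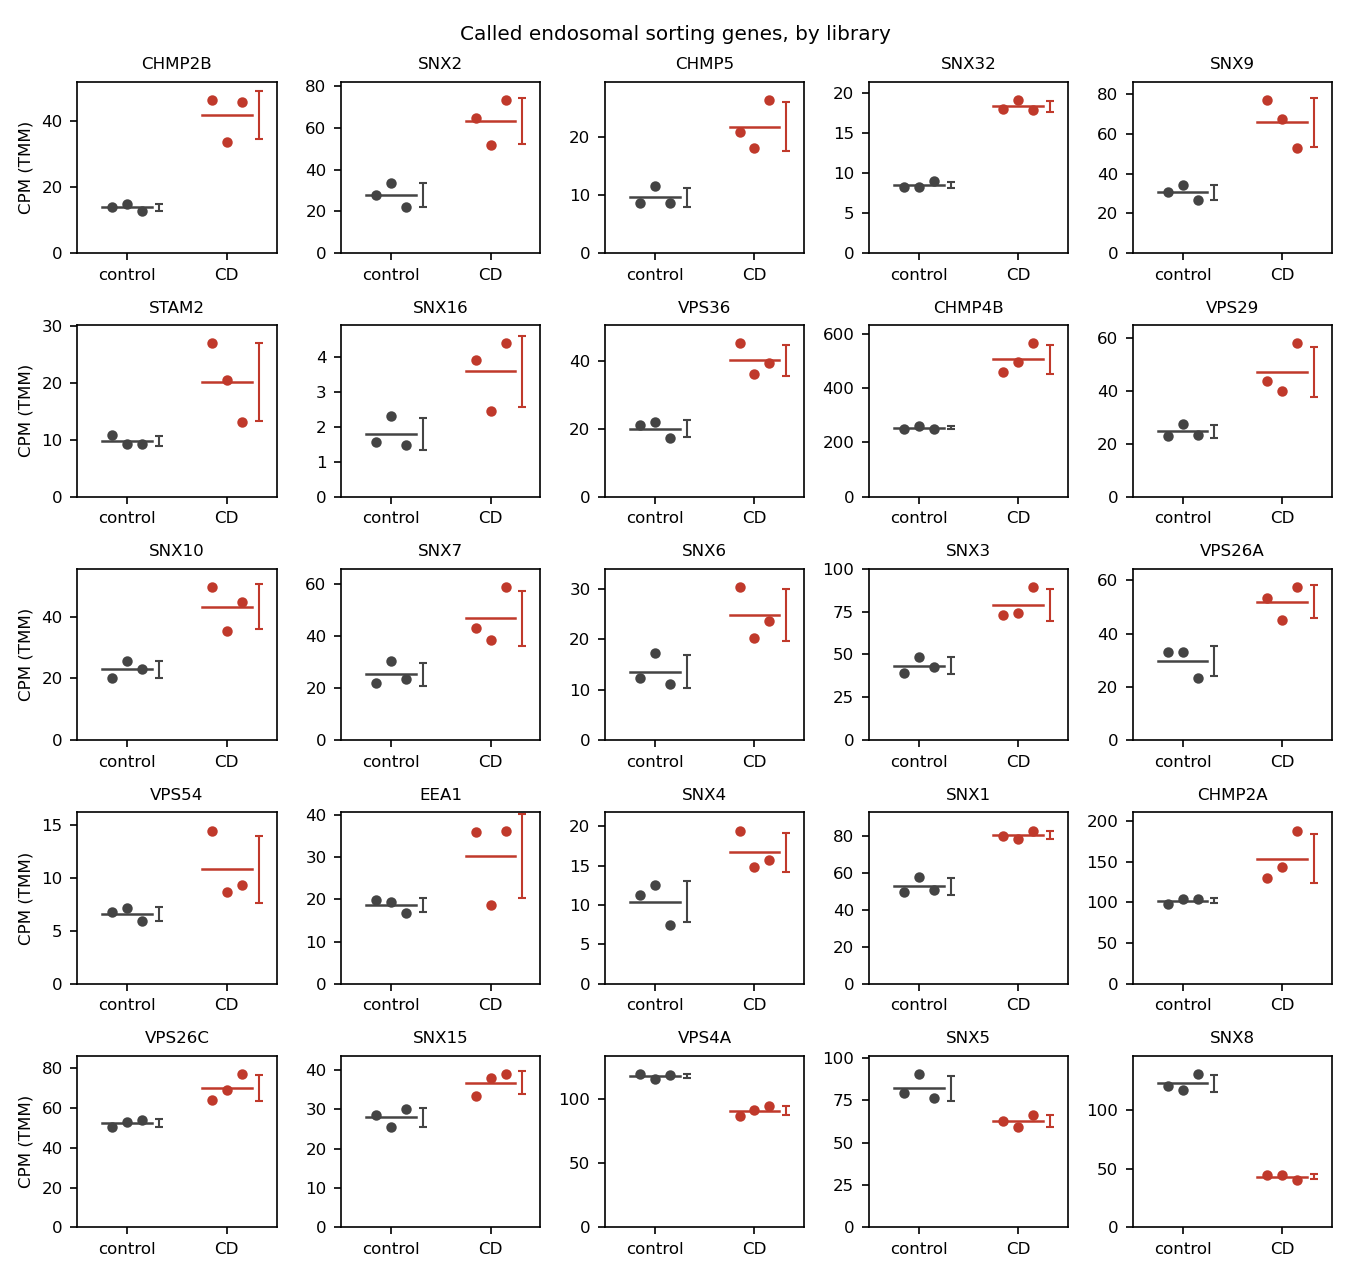
Expression in each library (points, CPM after TMM scaling on a linear axis from 0) of the 25 called members, ordered by log2FC, with the mean (line) and SD (bar) of 3 libraries per group. Only in EEA1 does a CD library (18.7 CPM) fall within the control libraries (16.8 to 20.0 CPM).

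Retromer is a trimer of VPS35, VPS29 and either VPS26A or VPS26B, and retriever is its counterpart made of VPS35L, VPS26C and the same VPS29. The shared subunit VPS29 (ENSNVIG00000017172) rose from 23.1, 27.5 and 23.4 CPM to 43.6, 39.8 and 57.8 CPM, a log2FC of 0.93 ± 0.17 (edgeR FDR 0.00126). VPS26A (ENSNVIG00000012407) rose from 33.2, 33.0 and 23.3 CPM to 53.3, 45.2 and 57.4 CPM, a log2FC of 0.80 ± 0.17 (edgeR FDR 0.00312). Both remained called in all 13 other ways of processing the counts, among them leaving out each library. VPS35, the scaffold of the trimer, was not called. It was at 72.8, 79.9 and 62.5 CPM in control against 96.5, 73.4 and 73.6 CPM in CD, with a log2FC of 0.18 (95% interval -0.15 to 0.51, edgeR FDR 0.35), and the groups overlapped.

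VPS26B lay on the other side. It was at 62.4, 63.4 and 68.4 CPM in control against 57.5, 57.3 and 45.1 CPM in CD, so every CD library was below every control library, but the log2FC of -0.28 was not called (95% interval -0.57 to 0.01, edgeR FDR 0.11). For the retriever subunit VPS26C, values rose from 50.6, 52.9 and 54.2 CPM to 64.2, 69.0 and 77.1 CPM (log2FC 0.41 ± 0.12, edgeR FDR 0.0160). This call was lost without control replicate 1, 2 or 3 or CD replicate 2 (edgeR FDR 0.0859, 0.0569, 0.0522 and 0.0618). VPS35L, which the symbol rule does not take and which was chosen after its value was seen, was lower, from 47.7, 45.3 and 47.0 CPM to 28.8, 32.7 and 27.9 CPM (log2FC -0.65 ± 0.12, edgeR FDR 0.00192).

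The ESCRT genes, 17 of which were tested, counted 6 higher and 1 lower, or 41.2% called against 47.7% of all tested genes. The complexes act in the order ESCRT-0, -I, -II and -III. In ESCRT-0, which binds ubiquitinated cargo, STAM2 was at 10.8, 9.25 and 9.26 CPM in control against 26.9, 20.4 and 13.1 CPM in CD, a log2FC of 1.05 ± 0.25 (edgeR FDR 0.00584). STAM, its paralog, was at 24.6, 25.2 and 21.3 CPM in control against 38.3, 32.3 and 26.0 CPM in CD, and its log2FC of 0.45 was not called (edgeR FDR 0.0510). In both genes CD replicate 1 was the highest and CD replicate 3 the lowest of the CD libraries, though still above control. Without CD replicate 3, STAM was called (log2FC 0.54, edgeR FDR 6.72e-04). HGS, the third subunit, was at 270, 246 and 276 CPM in control against 242, 278 and 234 CPM in CD, with overlapping groups (log2FC -0.07, 95% interval -0.32 to 0.18).

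None of the 3 ESCRT-I members tested was called. The log2FCs of VPS28, VPS37C and VPS37B were 0.02, 0.07 and 0.22, with 95% intervals of -0.27 to 0.31, -0.19 to 0.33 and -0.09 to 0.53. VPS37D, with 5 to 9 counts in each library, had too few reads to be tested. In ESCRT-II, which links ESCRT-I to the filament, VPS36 rose from 21.1, 22.0 and 17.3 CPM to 45.3, 36.3 and 39.4 CPM (log2FC 1.0 ± 0.15, edgeR FDR 4.72e-04). Its partner subunit VPS25 had a log2FC of -0.03 (95% interval -0.32 to 0.27).

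ESCRT-III, the filament that cuts the neck of the vesicle, had 4 of the 7 genes tested higher and none lower (other ESCRT-III genes were not analysed here), with 24.8% and 22.9% of all tested genes as the background. CHMP2B (ENSNVIG00000002896), a capping subunit that recruits VPS4, had the largest rise of all members. It was at 13.9, 14.8 and 12.8 CPM in control against 46.5, 33.7 and 45.8 CPM in CD, a 3.04-fold change (log2FC 1.60 ± 0.17, edgeR FDR 4.13e-05). The lowest CD library was above the highest control library by a wide margin. CHMP2A, which has the same role, rose less, from 98.3, 104 and 104 CPM to 130, 143 and 188 CPM (log2FC 0.59 ± 0.14, edgeR FDR 0.00721).

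CHMP4B (ENSNVIG00000017728), the main building block of the filament, rose from 251, 262 and 251 CPM to 459, 495 and 564 CPM, a log2FC of 0.99 ± 0.12 (edgeR FDR 9.01e-05). CHMP5, which regulates VPS4 through its cofactor VTA1, rose from 8.53, 11.5 and 8.60 CPM to 20.8, 18.0 and 26.3 CPM, a log2FC of 1.19 ± 0.20 (edgeR FDR 8.98e-04). The groups of both genes did not overlap. For CHMP4A the CD libraries also lay above the control libraries, at 68.0, 79.6 and 111 CPM against 62.0, 67.9 and 64.7 CPM, but the log2FC of 0.41 was not called (edgeR FDR 0.0739). It was called without CD replicate 1 (0.56, edgeR FDR 0.0122), while without CD replicate 3 the log2FC was 0.15 (edgeR FDR 0.26). CHMP6, which starts the filament on ESCRT-II, and CHMP7, which acts at the nuclear envelope, were not called, with log2FCs of -0.03 and 0.19.

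VPS4A, which encodes an ATPase that dismantles the filament, was lower. It was at 119, 115 and 118 CPM in control against 86.8, 90.9 and 94.4 CPM in CD, 0.772 times the control level (log2FC -0.37 ± 0.10, edgeR FDR 0.0134), and the groups did not overlap. Without control replicate 1 or 3 it was not called (edgeR FDR 0.0674 and 0.0545), nor with the replicate number as a further term of the fit (edgeR FDR 0.0557). The related gene VPS4B was not among the symbols matched and was not analysed here. PDCD6IP (ALIX), which brings ESCRT-III to membranes independently of ubiquitin, was at 92.4, 94.1 and 85.6 CPM in control against 144, 120 and 94.9 CPM in CD. The log2FC of 0.40 was not called (edgeR FDR 0.0514), but it was called without CD replicate 3 (0.51, edgeR FDR 8.11e-05).

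Members with like roles were also compared with each other inside each library, as the ratio of their read counts, which does not depend on how libraries are scaled. Of 22 pairs of related genes, 14 had both genes tested. With 3 libraries against 3, the exact two-sided permutation test of a ratio cannot give a p below 0.1, or 0.14 after adjustment over the 14 pairs, so no pair could pass a threshold of 0.05. The ratio of SNX5 to SNX6 fell from 6.4, 5.25 and 6.83 in control to 2.07, 2.93 and 2.81 in CD, that is, to 0.421 times its former value (exact permutation p = 0.1). The ratio of CHMP2A to CHMP2B went from 7.06, 7.0 and 8.14 to 2.79, 4.26 and 4.10 (0.495 times, exact permutation p = 0.1). In both pairs the shift was larger than the spread between libraries of a group.

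VPS26A gained on VPS26B. There were 0.532, 0.521 and 0.341 reads of VPS26A for each read of VPS26B in control and 0.927, 0.789 and 1.27 in CD, a 2.14-fold change of the ratio (exact permutation p = 0.1). The ratio of SNX3 to SNX12 changed 1.87-fold and that of SNX9 to SNX18 2.37-fold, each without overlap between the groups (exact permutation p = 0.1 for both). STAM to STAM2, SNX1 to SNX2 and CHMP4A to CHMP4B changed to 0.679, 0.668 and 0.656 times the control ratio, likewise without overlap (exact permutation p = 0.1 for each). In contrast, the ratios of SNX17 to SNX27, SNX13 to SNX14, SNX7 to SNX30 and VPS13A to VPS13C overlapped between the groups (exact permutation p = 1, 0.4, 0.2 and 0.4). The CD libraries were far apart in the first of these pairs, with 13.6, 19.2 and 51.5 reads of SNX17 for each read of SNX27.

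**Figure D3:**
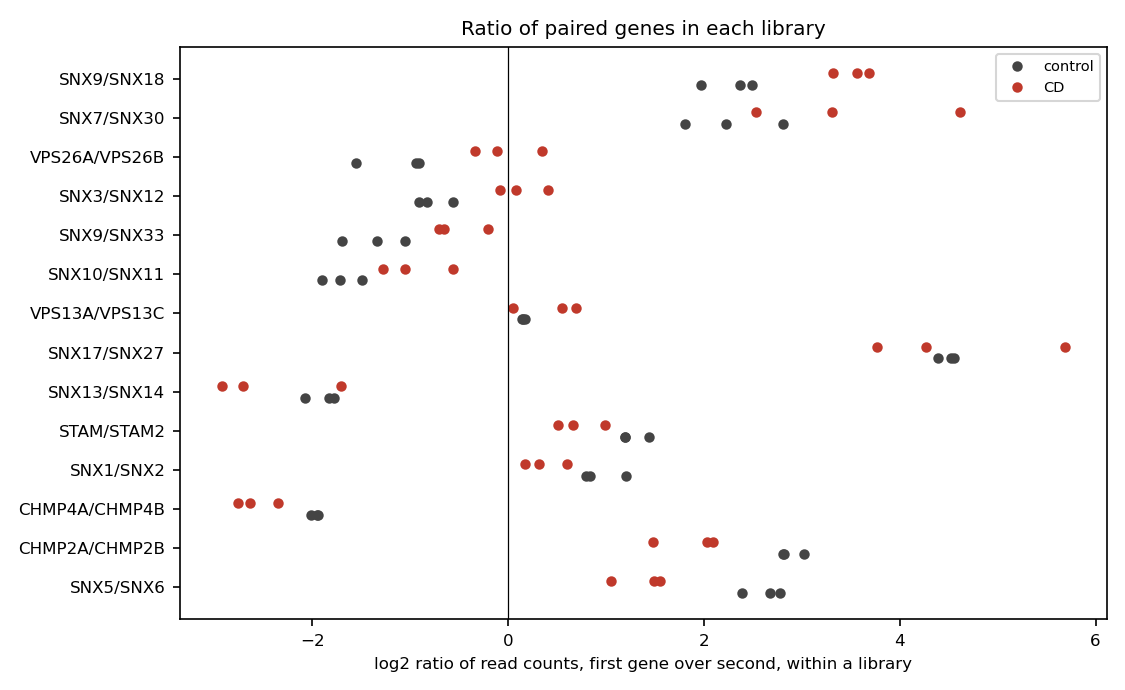
Log2 ratio of the read counts of 2 related genes within each library (points), for 14 pairs ordered by the difference between CD (red) and control (grey). The CD and control points are apart in 10 pairs, among them SNX5/SNX6 and VPS26A/VPS26B, and overlap in SNX7/SNX30, SNX17/SNX27, SNX13/SNX14 and VPS13A/VPS13C. The share of such pairs among other genes was not computed, so the 10 have no background. Of all single tested genes, 58.0% had groups that did not overlap.

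On early endosomes, EEA1 tethers vesicles by binding phosphatidylinositol 3-phosphate (PI3P), and PIKFYVE converts PI3P to phosphatidylinositol 3,5-bisphosphate. EEA1 was called higher, with a log2FC of 0.70 ± 0.24 (edgeR FDR 0.0348), but its libraries disagreed. It was at 20.0, 19.3 and 16.8 CPM in control against 36.0, 18.7 and 36.3 CPM in CD, so CD replicate 2 lay within the control range. The call was lost without any control replicate or without CD replicate 1 or 3 (edgeR FDR 0.0627 to 0.13). PIKFYVE was at 5.73, 5.57 and 5.84 CPM in control against 10.5, 5.40 and 2.88 CPM in CD, with no direction in common among the CD libraries (log2FC 0.14, 95% interval -0.70 to 0.98).

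The GARP complex tethers endosome-derived vesicles at the trans-Golgi network. Its subunit VPS54 was at 6.81, 7.16 and 5.90 CPM in control against 14.4, 8.65 and 9.29 CPM in CD (log2FC 0.71 ± 0.23, edgeR FDR 0.0275). CD replicate 1 was the highest, and without it or any control replicate VPS54 was not called (edgeR FDR 0.0714 without CD replicate 1 and 0.0765, 0.0640 and 0.12 without control replicates 1, 2 and 3). VPS51, VPS52 and VPS53 were not called, with log2FCs of 0.20, -0.23 and 0.39. VPS45, which acts with endosomal SNAREs, had a log2FC of 0.02 (95% interval -0.33 to 0.36). VPS72, a chromatin protein taken in by its symbol alone, had one of -0.03 (95% interval -0.31 to 0.26).

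The VPS13 genes, which encode very large bridge-like proteins that pass lipids between membranes, varied widely between the CD libraries. VPS13D was at 31.9, 29.4 and 32.1 CPM in control against 37.4, 25.4 and 11.2 CPM in CD. VPS13C was at 23.2, 19.4 and 20.2 CPM in control against 32.8, 14.0 and 9.15 CPM in CD. In all 4 genes, VPS13A and VPS13B included, CD replicate 1 lay above and CD replicate 3 below every control library. None was called, and the 95% interval of VPS13C reached from -1.0 to 0.67.

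This pattern was shared by other members. In 17 of the 60 (28.3%) the CD libraries reached past the control libraries on both sides, as they did in 16.8% of all tested genes. In 9 of the 17, CD replicate 1 was the highest and CD replicate 3 the lowest: the 4 VPS13 genes, PIKFYVE, SNX19, SNX27, SNX30 and VPS53. In 5 others, CHMP6, VPS25, VPS28, VPS51 and VPS72, it was the reverse. Among all such genes the corresponding shares were 46.5% and 27.2%. These members were picked for the spread of their CD libraries, so their values with 1 of these left out are a description only. Without CD replicate 1, VPS13D, VPS13C, SNX30 and SNX13 were called lower (log2FCs -0.75, -0.84, -0.71 and -0.62, edgeR FDR 0.0476, 0.00783, 0.0497 and 0.0284), and VPS51 higher (0.33, edgeR FDR 0.0221). Without CD replicate 3, VPS13B, VPS53 and SNX27 were called higher (0.70, 0.62 and 0.57, edgeR FDR 0.0116, 2.15e-04 and 0.00291). Of the members outside the 17, besides CHMP4A, STAM and PDCD6IP as given above, SNX17 and SNX21 were called higher without CD replicate 1 (0.28 and 0.35, edgeR FDR 0.0413 and 0.0402) and SNX33 without CD replicate 3 (0.28, edgeR FDR 0.0336). The unmapped share of reads was 3.54%, 4.33% and 9.37% in CD replicates 1, 2 and 3, but 18.4%, 13.6% and 4.26% in the control libraries, whose members lay close together, and its part in the spread was not tested.

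**Figure D4:**
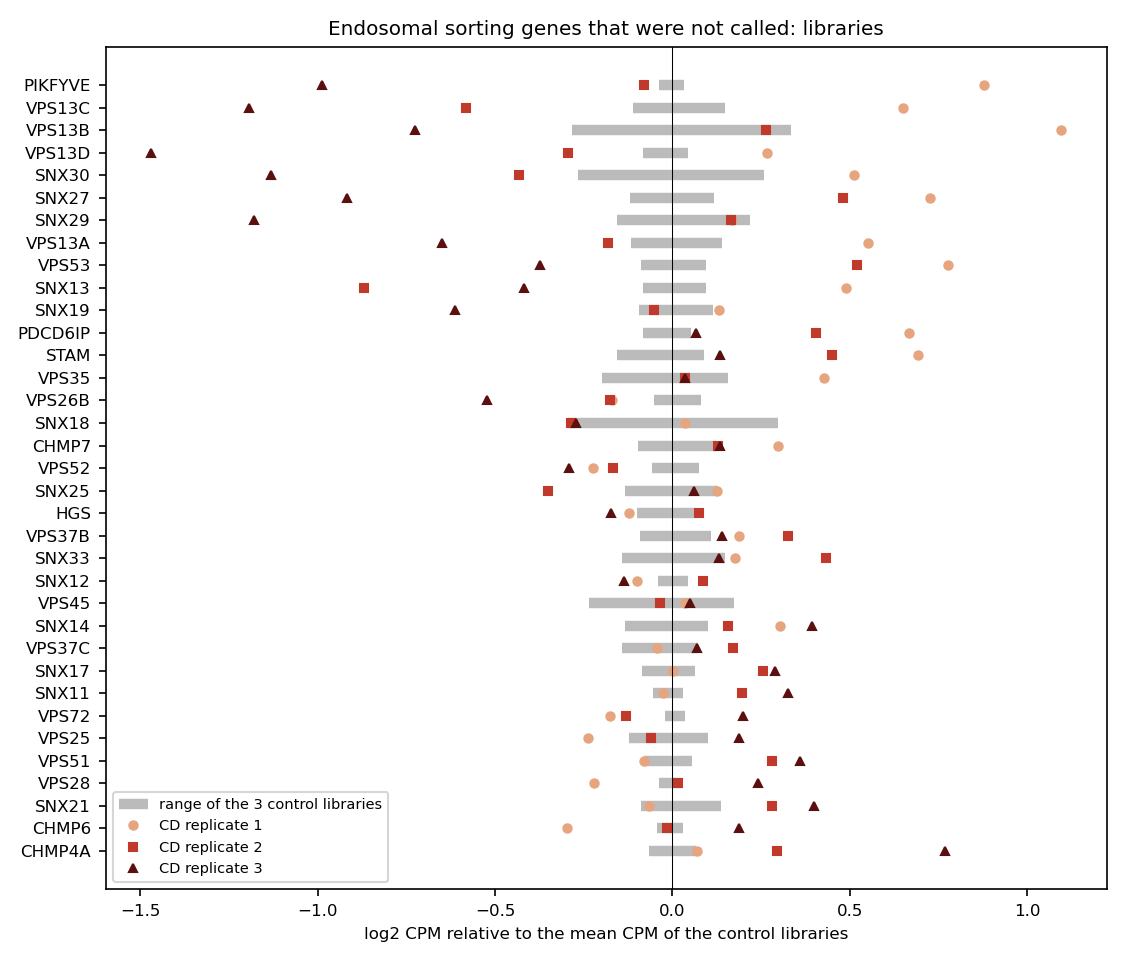
The 35 tested members that were not called: log2 CPM of each CD library (circle, square and triangle for replicates 1, 2 and 3) relative to the mean CPM of the control libraries, with the range of the control libraries as a grey bar. Genes are ordered by the difference between CD replicates 3 and 1. For VPS13C, VPS13B, PIKFYVE, VPS13D, SNX27 and SNX30, at one end of this order, replicate 1 lies to the right and replicate 3 to the left of the control bar.

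Genes that work with the members but are not taken by the symbol rule were examined as 6 lists, whose counts stand against 24.8% higher and 22.9% lower among all tested genes. The list of ESCRT partners had 7 higher and 2 lower of 13 tested (median log2FC 0.56). UBAP1, a subunit of ESCRT-I, was the highest called gene (0.81, edgeR FDR 0.00118), and MVB12A, another ESCRT-I subunit, the lowest (-0.62, edgeR FDR 0.00299). The WASH complex builds branched actin on endosomes. Together with its capping proteins it had 5 higher and none lower of 6 tested, with a median of 0.62. WASHC3 was highest at 1.25 (edgeR FDR 8.15e-04), and the smallest called change was that of the capping subunit CAPZA1 at 0.54 (edgeR FDR 0.0159), which was not called without control replicate 1 or 3 (edgeR FDR 0.0584 and 0.0832).

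The Commander complex, which contains retriever, had 3 higher and 3 lower of 10 tested, with a median of 0.10. COMMD9 fell by 1.07 on the log2 scale (standard error 0.13, edgeR FDR 1.44e-04), from 113, 110 and 115 CPM to 45.8, 52.6 and 63.0 CPM, while COMMD6 had a log2FC of 0.75 (edgeR FDR 0.0255), which was lost without control replicate 1 or 3 (edgeR FDR 0.10 and 0.0959). Of the enzymes of endosomal phosphoinositides, 5 were higher and 1 lower of 12 tested. INPP5F, a phosphoinositide phosphatase, was the highest (0.82, edgeR FDR 0.00179). VAC14, the scaffold that holds PIKFYVE, was the only gene called lower (-0.43, edgeR FDR 0.0178) and was not called without control replicate 1 or 3 (edgeR FDR 0.0950 and 0.0526). Of 10 PI3P effectors and early endosomal proteins tested, 3 were higher and none lower, led by ANKRD27 (1.14, edgeR FDR 7.27e-05), a partner of retromer and VPS29. WDFY1 had the smallest called change in that list (0.54, edgeR FDR 0.0479), and it was not called without any one of the control libraries, CD replicate 1 or CD replicate 2 (edgeR FDR 0.0855 to 0.14) or with scaling by total counts (edgeR FDR 0.0777).

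Of 17 sorting receptors and cargoes tested, 3 were higher and 4 lower (median log2FC 0.12), while 47.7% of all tested genes were called in either direction. CD44, a cell surface receptor, rose most (2.58, edgeR FDR 7.81e-07), and SORL1, a neuronal and epithelial sorting receptor that binds retromer, fell most, from 14.5, 13.4 and 16.3 CPM to 5.10, 3.99 and 2.59 CPM (-1.91, edgeR FDR 1.45e-04). The following were chosen after their values were seen. M6PR, the cation-dependent mannose 6-phosphate receptor, was lower, at 310, 341 and 363 CPM in control against 206, 193 and 203 CPM in CD (log2FC -0.75 ± 0.11, edgeR FDR 3.32e-04). IGF2R, the cation-independent receptor carried by the SNX1 and SNX2 coat, was at 251, 239 and 288 CPM in control against 377, 322 and 183 CPM in CD. It was not called (log2FC 0.18, edgeR FDR 0.53), but was called higher without CD replicate 3 (0.40, edgeR FDR 0.00183). ITGB1, an integrin recycled through SNX17, rose from 279, 295 and 295 CPM to 1036, 790 and 660 CPM (log2FC 1.52 ± 0.16, edgeR FDR 5.37e-05).

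**Figure D5:**
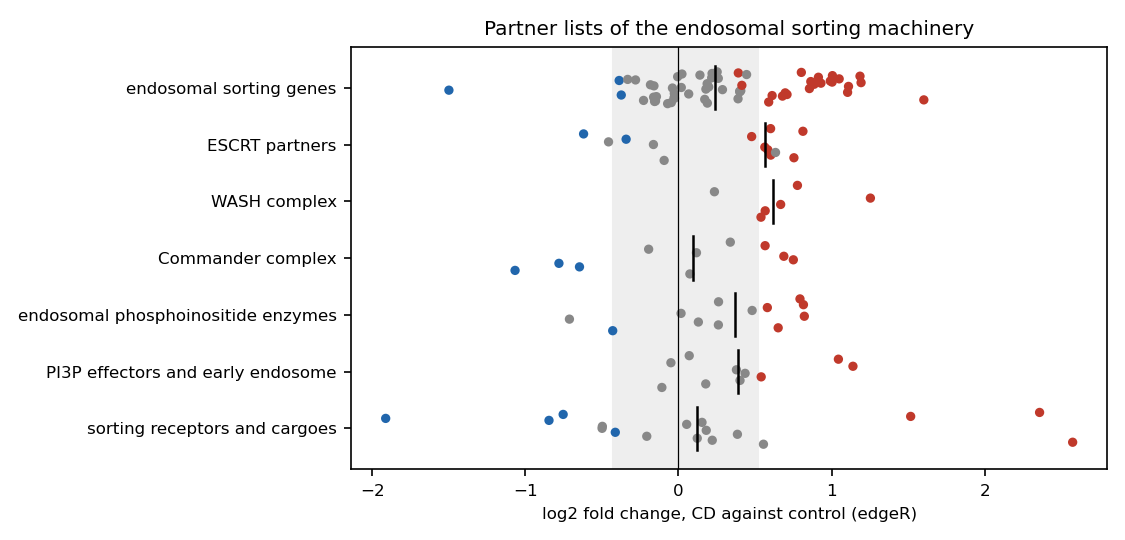
Log2 fold change in CD against control of each tested gene (points; red higher, blue lower, grey not called) in the members and in 6 lists of partner genes, with the median of each list (black line) and the middle 50% of all tested genes (grey band). The medians lie between 0.10 (Commander complex) and 0.62 (WASH complex). Points are offset vertically only to be seen.

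Over the members as a whole, 16 of the 22 higher genes kept their call in all of the 13 other ways of processing in which they could be tested, and of the lower genes SNX8 did. The higher genes that did not are SNX4, SNX15, SNX16, VPS26C, VPS54 and EEA1, and the lower ones SNX5 and VPS4A. The share of all called genes that kept their call was not computed, so this count has no background and is not a trait of the members.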

How the data were processed

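Per the labels and the study's methods, poly(A) RNA was amplified as cDNA, tagmented with Nextera XT and sequenced, and reads were trimmed with fastp 0.20.1 and aligned to mink assembly NNQGG.v01 with STAR 2.7.2a. The counting program and its use of strand are not given in the sources used here, so overlapping genes and genes with close copies are uncertain. The authors deposited raw counts per gene for the 6 libraries. They also deposited normalized values, not used here: these are the same counts divided by 1 constant per library, beside gene identifiers in another order. The table's 4 rows of reads that name no gene were left out.

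The test was that of edgeR 4.0.16 (R 4.3.3), with filterByExpr (minimum count 10, total 15), TMM, glmQLFit (robust) and glmQLFTest, with condition as the only term. FDR is Benjamini-Hochberg over 12148 genes. The standard error is the log2 fold change divided by the square root of F. Its median over the members was 0.15, which sets the precision at this depth. Pair ratios had 0.5 added to each count. Scripts were tested on simulated data.

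Members and lists were chosen with earlier results of these data known. Library values were given for retromer core, ESCRT-0, EEA1, PIKFYVE and the 10 highest and 10 lowest called members, and for further members and partner genes chosen after their values were seen. Of the partner lists, the highest and the lowest called gene were named. Alternatives were DESeq2 1.42.0, scaling by total counts, upper quartile or DESeq2 size factors, either no filter or at least 50 counts in 3 libraries, a block for the replicate number, an FDR of 0.01, 1 added to counts in ratios, and each library left out. No replicate library was a copy of another.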

Additional observations from a re-analysis of the deposited data

How the results depend on the processing

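The number of members called higher was 22 and lay between 21 and 24 under the other tools, scalings and filters and with the replicate number as a block, and at 16 with an FDR under 0.01. With each library left out it ranged from 16 (without control replicate 1 or 3) to 27 (without CD replicate 3). The number called lower was 3, with the replicate block 1 (SNX8), with an FDR under 0.01 also 1, and with each library left out between 1 and 7, the latter without CD replicate 1. The median log2 fold change of the members stayed between 0.19 and 0.27 in every setting. Over all genes, an FDR under 0.01 left 2006 of 3016 higher genes. With the replicate block, 2772 genes were higher and 2636 lower. Of all genes, 2265 and 2216 were called higher without control replicates 1 and 3, and 3616 without CD replicate 3. Those called lower among all genes numbered 2784 with every library in, 2214 without control replicate 1 and 2883 without CD replicate 1.

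The labels do not say whether the replicate numbers pair the samples. Deviations from the group means of same-numbered control and CD libraries correlated at -0.40 to -0.02, and 0 of the 6 libraries correlated best with its own number. With 3 libraries per group, these correlations cannot decide whether the samples were paired. With the block, SNX5, VPS4A and SNX15 were not called (FDR 0.0599, 0.0557 and 0.0901, edgeR). SNX15 was also not called with DESeq2, with its size factors or without a filter (FDR 0.0577, 0.0508 and 0.0577). STAM and PDCD6IP were called with upper-quartile scaling, without a filter and with at least 50 counts in 3 libraries (edgeR FDR 0.0352 to 0.0494).

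Some members near 0 changed sign without being called. These were PIKFYVE with the replicate block (-0.0227), VPS13A with upper-quartile scaling (0.0290) or total counts (0.0260), CHMP6, VPS25 and VPS72 with upper-quartile scaling (0.00350, 0.00664 and 0.00593), VPS45 with DESeq2 (-0.00550) or its size factors (-0.00152), and VPS28 with DESeq2 (-6.92e-05). With each library left out, the sign also changed for 18 genes, with log2 fold changes of -0.18 to 0.10 for CHMP6, -0.028 to 0.40 for IGF2R, -0.44 to 0.44 for PIKFYVE, -0.62 to 0.076 for SNX13, -0.29 to 0.010 for SNX18, -0.29 to 0.0057 for SNX19, -0.13 to 0.064 for SNX25, -0.035 to 0.57 for SNX27, -0.38 to 0.13 for SNX29, -0.71 to 0.079 for SNX30, -0.38 to 0.19 for VPS13A, -0.13 to 0.70 for VPS13B, -0.84 to 0.12 for VPS13C, -0.18 to 0.082 for VPS25, -0.13 to 0.14 for VPS28, -0.016 to 0.13 for VPS37C, -0.090 to 0.11 for VPS45 and -0.19 to 0.055 for VPS72. The cause was not tested.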
